A study of Mus musculus with 23 samples.

Results

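The genes described here encode 6 subunits or relatives of the NADPH oxidase: Cyba, Cybb, Ncf1, Ncf4, Rac2 and Nox4, out of 19733 genes measured. The set was picked because Cyba was higher with urolithin A, a gut microbial metabolite of ellagitannins, so the comparison of EtOH-UA with EtOH mice is given below as a description, with no test for any of the 6. Hippocampal RNA was sequenced from 23 wild-type male C57BL/6J mice, acquired at 6 weeks of age. The 9 Ctrl mice were fed a control liquid diet and gavaged with the vehicle, sodium carboxymethyl cellulose. For the 7 EtOH mice the liquid diet held ethanol and the vehicle was the same. The 7 EtOH-UA mice were fed the ethanol diet and gavaged with urolithin A at 200 mg/kg/day. Feeding lasted 16 weeks, and 1 week of behavioral tests followed, so every mouse had also been handled and tested. No group received urolithin A without ethanol. Urolithin A was given from the start of ethanol feeding, so that comparison asks about prevention rather than reversal.

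NADPH oxidase moves electrons from NADPH across a membrane onto oxygen and so makes superoxide. In phagocytes, microglia among them, the catalytic subunit gp91phox (encoded by Cybb, also called Nox2) sits in the membrane together with p22phox (encoded by Cyba). The enzyme is silent until cytosolic subunits, p47phox (Ncf1) and p40phox (Ncf4) among them, and a Rac GTPase join the membrane pair. Nox4 is a catalytic subunit of a separate oxidase that also needs p22phox but not the cytosolic organizers. In the brain the phagocyte oxidase is best known in microglia, and p22phox is also made by other cells. In tissue RNA, fewer cells of a type and less RNA per cell cannot be told apart.

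Values are FPKM, fragments per kilobase of transcript, corrected for library size, which allow levels to be compared between genes because transcript length is divided out. The steps between the lowest values of 16 genes (of 600 with low values) corresponded to a median of 16.7 fragments on a 1 kilobase transcript at 1 FPKM (quartiles 16.1 and 16.9 over these genes, steps even within 0.006 FPKM). By this estimate, with the longest coding transcript taken as length, Cyba rested on about 56.6 fragments per library and Rac2 on 61.9. Ncf1 rested on 134, Cybb on 14.7, Ncf4 on 9.33 and Nox4 on 2.28. Shorter coding transcripts are annotated, down to 390 bp for Cybb, 254 bp for Rac2 and 592 bp for Nox4. With those the numbers would be lower. Summed FPKM ranged from 330456 to 361354 in Ctrl, from 327896 to 366930 in EtOH and from 333801 to 404609 in EtOH-UA mice. A pair of EtOH-UA libraries stood apart at 379518 and 404609. For 2177 genes with a median coding transcript of at most 1000 bp, the log2 deviation from each gene's mean over all 23 libraries was taken. The median deviation was 0.176 and 0.317 in these libraries. It was at most -0.031 in the other 5 EtOH-UA libraries and at most 0.132 in any other library. This deviation is called the short-transcript measure below. Cyba is itself such a gene, with coding transcripts of 638 to 744 bp, and its values are therefore given with and without those mice. The 20 microglial markers were all detected. Their summed levels were 305.24 to 399.08 FPKM in Ctrl, 284.28 to 386.88 in EtOH and 300.87 to 434.92 in EtOH-UA mice. Summed choroid plexus markers ran from 41.29 to 8547.4 FPKM across libraries. Their medians were 115.97 FPKM in Ctrl, 1485.57 FPKM in EtOH and 2123.95 FPKM in EtOH-UA mice. All 10 were higher than in Ctrl mice in both ethanol-fed groups (median log2 difference 1.72 in EtOH and 1.20 in EtOH-UA). So were all 8 ependymal markers (0.64 and 0.35), where 48.6% and 51.2% of all genes were higher. The part of these tissues in the comparisons with Ctrl mice was not tested.

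Cyba (gene ID 13057) lies on the minus strand of chromosome 8, at 122424771 to 122432940 in GRCm38.p6, and overlaps the plus-strand gene Gm20388, so without strand information reads of the overlap cannot be assigned. Cybb (gene ID 13058) lies on the minus strand of chromosome X, at 9435252 to 9487766. The 250 bases before the RefSeq start of these genes are shown because they are the partners of a single membrane complex, one with the highest level of the set and the other with the lowest but one. Capitals mark the GC box (GGGCGG) in Cyba and the CCAAT box (CCAAT) in Cybb. The first sequence is chr8:122432941-122433190 and the second is chrX:9469325-9469574, both on the minus strand of GRCm38.p6. The start used for Cybb lies inside the annotated span of the gene.
Cyba: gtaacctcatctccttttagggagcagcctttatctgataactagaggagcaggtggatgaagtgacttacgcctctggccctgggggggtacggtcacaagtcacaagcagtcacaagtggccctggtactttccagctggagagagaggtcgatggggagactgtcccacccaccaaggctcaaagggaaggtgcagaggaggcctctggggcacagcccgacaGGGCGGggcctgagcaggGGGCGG
Cybb: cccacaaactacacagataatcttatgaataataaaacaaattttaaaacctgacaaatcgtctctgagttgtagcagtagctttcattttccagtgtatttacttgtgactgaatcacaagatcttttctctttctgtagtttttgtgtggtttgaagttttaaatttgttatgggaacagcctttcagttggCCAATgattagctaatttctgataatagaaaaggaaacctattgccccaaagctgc
The Cyba window held 2 GC boxes, at 24 to 19 and 6 to 1 bases before the start, and none of the other motifs searched on either strand. The Cybb window held 1 CCAAT box, 56 to 52 bases before the start, and no GC box. Among 32851 promoter windows of the same length, 32.7% held a GC box and 33.8% a CCAAT box, so either motif is common. Ncf1 held 1 GC box 42 to 37 bases before its start, on the opposite strand, and Nox4 held 1 at 24 to 19 bases. The letters GAGGAA (in 23.3% of all windows), TATAAA (12.4%) and TGACNNNGC (10.2%) were in none of the 4 windows searched. Ncf4 and Rac2 were not searched.

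The levels of the 6 genes differed by about 2 orders of magnitude. Cyba had the highest level, at 4.56 ± 0.9996 FPKM over all mice (SD, n = 23). Ncf1 followed at 2.78 ± 0.296 FPKM, Rac2 at 1.22 ± 0.151 FPKM, Ncf4 at 0.382 ± 0.102 FPKM and Cybb at 0.185 ± 0.0727 FPKM. Nox4 was last at 0.0365 ± 0.0204 FPKM. The ranges of Ncf1 and Rac2 did not overlap, nor did those of Rac2 and Ncf4. The ranges of Cyba and Ncf1 overlapped, although Cyba was the higher of the pair in 22 of 23 mice. Ncf4 and Cybb also overlapped, with Ncf4 higher in 22 of 23 mice. Cybb was above Nox4 in all 23 mice, although the highest Nox4 value of any mouse (0.08 FPKM) exceeded the lowest Cybb value (0.07 FPKM). Transcripts for the membrane partners were therefore present at unequal levels, with far more Cyba than Cybb.

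**Figure D1:**
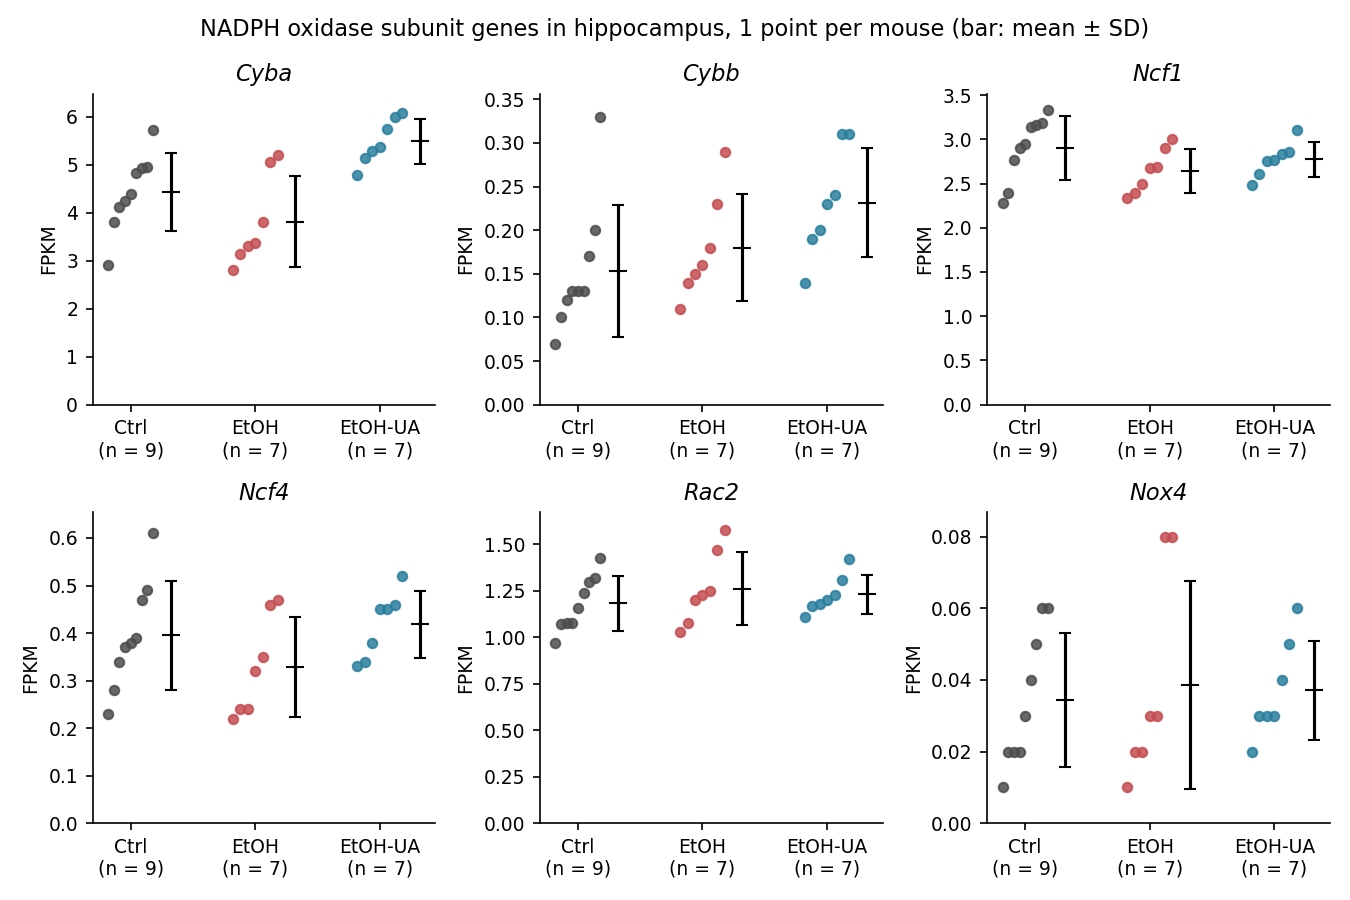
FPKM of the 6 genes by group, with 1 point per mouse and the mean ± SD beside each group. All 7 EtOH-UA mice had at least 4.78 FPKM of Cyba, whereas 5 of 7 EtOH mice had 3.80 FPKM or less, and the ranges of every gene overlapped between groups.

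Cyba, the gene that chose the set, was higher with urolithin A on top of ethanol. The 7 EtOH mice had 2.81, 3.14, 3.31, 3.36, 3.80, 5.05 and 5.21 FPKM of Cyba. The 7 EtOH-UA mice had 4.78, 5.14, 5.29, 5.36, 5.74, 6.0 and 6.07 FPKM. Ctrl mice ran from 2.91 to 5.73 FPKM with a median of 4.38 FPKM. The EtOH group thus held 5 mice below every EtOH-UA mouse and 2 mice within the EtOH-UA range, and all 7 EtOH-UA mice lay above the EtOH median. The means were 3.81 ± 0.949 FPKM in EtOH, 5.48 ± 0.473 FPKM in EtOH-UA and 4.43 ± 0.807 FPKM in Ctrl mice (SD; n = 7, 7 and 9). At the estimated depth, counting alone gives an SD of 0.554 to 0.665 FPKM, so the spread of the EtOH-UA mice was within counting error and that of the EtOH mice exceeded it.

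On the scale of log2(FPKM + 0.1), Cyba differed by 0.54 between EtOH-UA and EtOH mice (SE 0.13), a ratio of mean FPKM of 1.44. The difference was 0.32 between EtOH-UA and Ctrl mice (SE 0.13) and -0.22 between EtOH and Ctrl mice (SE 0.13). No test is given for any of these, since Cyba was chosen on mice that all 3 comparisons share. The 2 EtOH-UA libraries that stood apart held the highest Cyba values of all, 6.0 and 6.07 FPKM. Without them the difference between EtOH-UA and EtOH mice was 0.49, and with the short-transcript measure as a covariate it was 0.48. Of the 2 EtOH mice with high Cyba, the one at 5.21 FPKM had a short-transcript measure of 0.132 and the one at 5.05 FPKM had -0.018. When all libraries with a measure over 0.1 were left out, the difference was 0.57. Leaving out each mouse in turn gave 0.48 to 0.62.

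Cybb, the catalytic partner of Cyba, had the lowest level of the phagocyte subunits in the set. Ctrl mice ran from 0.07 to 0.33 FPKM (median 0.13), EtOH mice from 0.11 to 0.29 FPKM (median 0.16) and EtOH-UA mice from 0.14 to 0.31 FPKM (median 0.23). The groups overlapped over most of their range, and all 7 EtOH-UA mice lay above the Ctrl median. Ctrl mice averaged 0.153 ± 0.0760 FPKM, EtOH mice 0.180 ± 0.0611 FPKM and EtOH-UA mice 0.231 ± 0.0626 FPKM (SD; n = 9, 7 and 7). Between EtOH-UA and Ctrl mice Cybb differed by 0.41 on the log2(FPKM + 0.1) scale (SE 0.18), with a p of 0.0333 in a two-sided exact permutation test. The adjusted p over 15985 genes was 0.999 (limma), so Cybb did not pass. Without the 2 libraries that stood apart the difference was 0.44, without the one of highest summed FPKM it was 0.36, and leaving out each mouse gave 0.35 to 0.52. Of 6 red cell markers 5 could be fitted, and all 5 were higher in EtOH-UA than Ctrl mice, beside 51.2% of all genes. Their median log2 difference was 0.66, and 4 were at an unadjusted p under 0.05 (limma), beside 3.08% of all genes. Without the 2 libraries the median was 0.54 and 1 of 5 was below that p, beside 981 of 15985 genes in that fit. Their summed level ran from 40.34 to 137.42 FPKM in Ctrl, 29.33 to 201.47 FPKM in EtOH and 84.35 to 276.03 FPKM in EtOH-UA mice. All 5 were higher relative to EtOH mice too (median 0.39). Among fitted neutrophil markers 1 was higher and 3 lower in EtOH-UA than Ctrl mice (median -0.46). For monocytes 0 were higher and 3 lower (median -0.08), and for lymphocytes 1 was higher and 2 lower (median -0.06). Relative to EtOH mice the neutrophil markers were again 1 higher and 3 lower (median -0.40). Monocyte markers were then 1 higher and 2 lower, and lymphocyte markers 2 higher and 1 lower. The part of blood in the levels of Cybb and Cyba was not tested. Cybb differed by 0.17 between EtOH and Ctrl mice (SE 0.18; exact permutation p = 0.365) and by 0.25 between EtOH-UA and EtOH mice (SE 0.19, not tested).

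Ncf1 encodes the organizer that docks on the tail of p22phox. It ran from 2.28 to 3.33 FPKM in Ctrl (median 2.95), from 2.34 to 3.0 FPKM in EtOH (median 2.68) and from 2.48 to 3.11 FPKM in EtOH-UA mice (median 2.77). Both ethanol-fed groups lay within the Ctrl range. Relative to Ctrl mice the log2 difference was -0.13 in EtOH (SE 0.08; exact permutation p = 0.148) and -0.05 in EtOH-UA mice (SE 0.08; exact permutation p = 0.486). Between EtOH-UA and EtOH mice it was 0.07 (SE 0.08). Ncf1 overlaps the plus-strand gene Gtf2ird2 on chromosome 5, and the sources used here do not say whether strand was kept, so reads of the overlap cannot be assigned.

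Ncf4 encodes p40phox, the cytosolic subunit that binds a phosphoinositide of phagosome membranes. It ran from 0.23 to 0.61 FPKM in Ctrl (median 0.38), from 0.22 to 0.47 FPKM in EtOH (median 0.32) and from 0.33 to 0.52 FPKM in EtOH-UA mice (median 0.45). The lowest 4 EtOH mice lay below every EtOH-UA mouse, and the highest Ctrl mouse lay above all others. The log2 difference was -0.21 between EtOH and Ctrl mice (SE 0.16; exact permutation p = 0.235) and 0.09 between EtOH-UA and Ctrl mice (SE 0.16; exact permutation p = 0.548). Between EtOH-UA and EtOH mice it was 0.30 (SE 0.17, not tested).

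Rac2, the Rac GTPase of blood-derived cells, ran from 0.97 to 1.43 FPKM in Ctrl (median 1.16), from 1.03 to 1.58 FPKM in EtOH (median 1.23) and from 1.11 to 1.42 FPKM in EtOH-UA mice (median 1.20). The EtOH-UA range lay within that of Ctrl mice. The log2 difference from Ctrl was 0.08 in EtOH (SE 0.09; exact permutation p = 0.385) and 0.06 in EtOH-UA mice (SE 0.09; exact permutation p = 0.434). Between EtOH-UA and EtOH mice it was -0.02 (SE 0.10), and its sign turned under quantile normalization (0.0062) and in some of the fits that left out 1 mouse (-0.07 to 0.03).

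Nox4 was above 0 in all 23 mice but rested on about 2 fragments per library. It ran from 0.01 to 0.06 FPKM in Ctrl, from 0.01 to 0.08 FPKM in EtOH and from 0.02 to 0.06 FPKM in EtOH-UA mice, with a median of 0.03 FPKM in each group. A pair of EtOH mice at 0.08 FPKM lay above the rest. Exact permutation tests gave p = 0.808 between EtOH and Ctrl mice and p = 0.673 between EtOH-UA and Ctrl mice. No difference in Nox4 was detected at this depth.

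Of the 6 genes, 5 passed the filter for the fit across genes (a mean of at least 0.1 FPKM), and Nox4 did not. Of the 4 tested in that fit, 0 passed an adjusted p of 0.05 in either comparison with Ctrl mice, where 0.0% of all 15985 genes passed in each. The count of the 4 at an unadjusted p under 0.05 (limma) was 0 between EtOH and Ctrl mice, beside 3.05% of all genes. It was 1 (Cybb, unadjusted limma p = 0.0276, beside the exact permutation p above) between EtOH-UA and Ctrl mice, beside 3.08% of all genes. This count became 0 without 1 of 2 EtOH-UA mice (summed FPKM 404609 or 336178), without 1 Ctrl mouse (358381) and without the libraries with a short-transcript measure over 0.1. Between EtOH-UA and EtOH mice, 4 of the 5 fitted genes (Cyba, Cybb, Ncf1 and Ncf4) were higher in EtOH-UA mice, beside 51.2% of all genes, and nothing is read from this count because the comparison chose the set. The ranges of all 6 genes overlapped in every comparison, and ranges were apart for 0.025% of all genes between EtOH-UA and EtOH, 0.00626% between EtOH and Ctrl, and 0.0125% between EtOH-UA and Ctrl mice. The 3 comparisons share mice, so their directions are not independent.

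**Figure D2:**
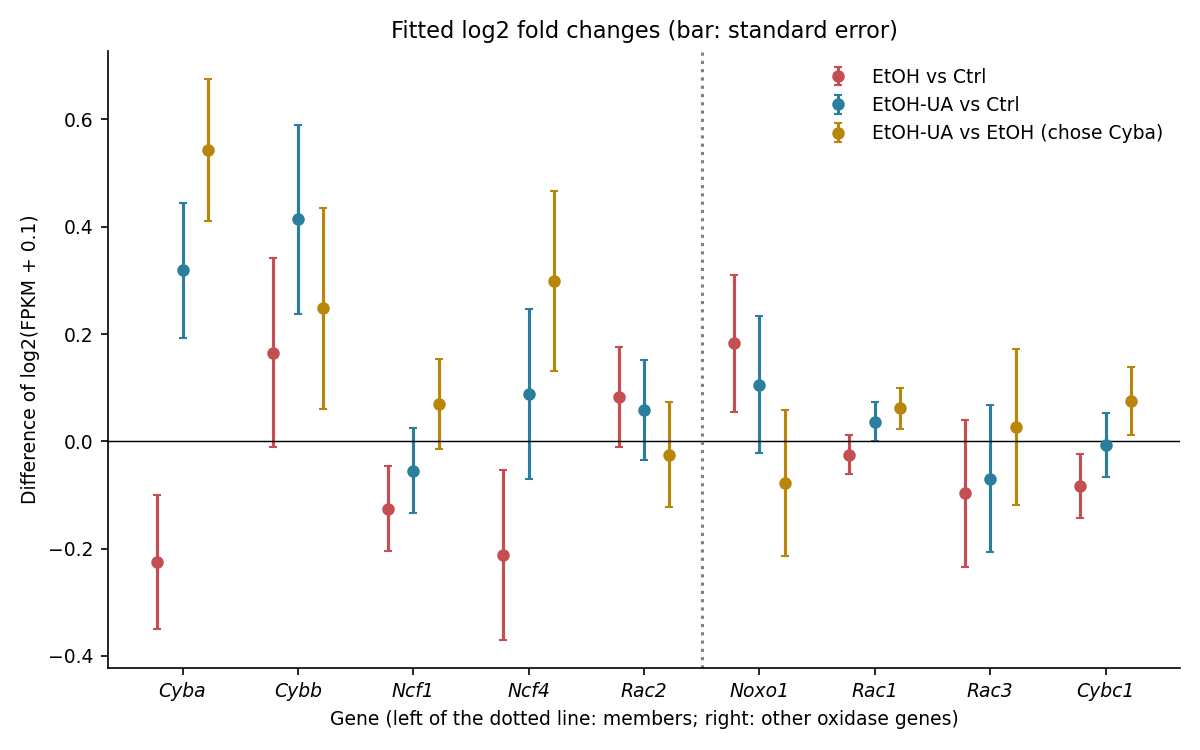
Fitted differences of log2(FPKM + 0.1) with standard errors for the 5 fitted genes of the set (left of the dotted line) and 4 other oxidase genes (right). Cyba stands at 0.54 between EtOH-UA and EtOH mice, and the other oxidase genes lie between -0.10 and 0.18 in every comparison.

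Other oxidase genes show which other forms of the enzyme were transcribed. Rac1, the widely expressed Rac GTPase, had 136 FPKM on average over all mice, Rac3 had 10.7 FPKM and Cybc1, a chaperone for the membrane pair, had 7.84 FPKM. Noxo1, an organizer of the Nox1 oxidase, had 1.02 FPKM. The other catalytic subunits and their partners were at the edge of detection. Nox1 averaged 0.0930 FPKM, Duoxa1 0.0357 FPKM, Duox1 and Duox2 0.0309 FPKM each, Nox3 0.0204 FPKM, Duoxa2 0.01 FPKM and Noxa1 0.0026 FPKM. Nox3 was listed at 0 in 16 mice, Duoxa2 in 18 and Noxa1 in 21. Of these 11 genes, 4 could be fitted (Rac1, Rac3, Cybc1 and Noxo1). At an adjusted p of 0.05 (limma) 0 of 4 passed in any of the 3 comparisons, where 0.0% of all genes passed. At an unadjusted p under 0.05 it was also 0 of 4. The shares of all genes there were 3.27% (EtOH-UA and EtOH), 3.05% (EtOH and Ctrl) and 3.08% (EtOH-UA and Ctrl). Noxo1 differed by 0.18 between EtOH and Ctrl mice (SE 0.13), and Rac1 by 0.06 between EtOH-UA and EtOH mice.

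Counted here are 21 genes that switch the oxidase on or off (Fc receptors, kinases, Vav exchange factors and others). Of these, 0 passed an adjusted p of 0.05 (limma) in any comparison, where 0.0% of all genes passed. Between EtOH-UA and EtOH mice 13 were higher and 8 lower, with a median log2 difference of 0.05 beside 0.0033 over all genes. At an unadjusted p under 0.05 there were 2, both higher in EtOH-UA mice, beside 3.27% of all genes. They were Btk, a kinase of B and myeloid cells (0.30), and Fcgr3, an activating Fc receptor (0.24). Neither was below that threshold without the 2 libraries that stood apart (0.26 and 0.15) or with the short-transcript covariate (0.25 and 0.14). Without the libraries with a measure over 0.1, Fcgr3 was below it (0.20) and Btk was not (0.30). Between EtOH and Ctrl mice 10 were higher and 11 lower, where 48.6% of all genes were higher. Btk was the 1 gene below that unadjusted threshold, at -0.29, beside 3.05% of all genes. Between EtOH-UA and Ctrl mice 12 were higher and 9 lower, where 51.2% of all genes were higher. The 1 gene below the threshold there was Vav2, an exchange factor for Rac, at -0.19, beside 3.08% of all genes. Without the 2 libraries neither stayed below it, with Vav2 at -0.15. Btk kept its difference of -0.29, since no EtOH-UA mouse enters that comparison, and only the estimate of the spread shared by the 3 groups changed. With the short-transcript covariate Vav2 stayed below the threshold (-0.19) and Btk did not (-0.26).

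Of 16 genes whose enzymes remove superoxide or peroxide, 15 were higher with urolithin A than with ethanol alone, beside 51.2% of all genes. Their median log2 difference was 0.10, and 0 passed an adjusted p of 0.05 (limma), beside 0.0% of all genes. Prdx6, a peroxiredoxin, differed by 0.19 and Txnrd1, a thioredoxin reductase, by 0.11, and these 2 of 16 were at an unadjusted p under 0.05, beside 3.27% of all genes. Without the 2 EtOH-UA libraries of highest summed FPKM, 5 of 16 were higher and 11 lower, with a median of -0.04, and none was at an unadjusted p under 0.05 (limma; Prdx6 0.09, Txnrd1 0.06). With the short-transcript measure as a covariate, 7 were higher and 9 lower. Prdx6 stayed below the unadjusted threshold with the covariate (0.11) and without the libraries with a measure over 0.1 (0.13). Txnrd1 did not (0.08 and 0.07). The direction of this list thus turned without 2 libraries. Between EtOH and Ctrl mice 2 of the 16 were higher and 14 lower (median -0.06), where 48.6% of all genes were higher. Between EtOH-UA and Ctrl mice 14 were higher and 2 lower (median 0.04), where 51.2% of all genes were higher. This turned to 4 higher and 12 lower (median -0.09) without the 2 libraries and to 9 higher and 7 lower (median 0.0034) with the covariate. Sod3, the extracellular superoxide dismutase, differed by 0.36 between EtOH-UA and Ctrl mice at an unadjusted p under 0.05 (limma), and by 0.20, no longer below that threshold, without the 2 libraries.

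**Figure D3:**
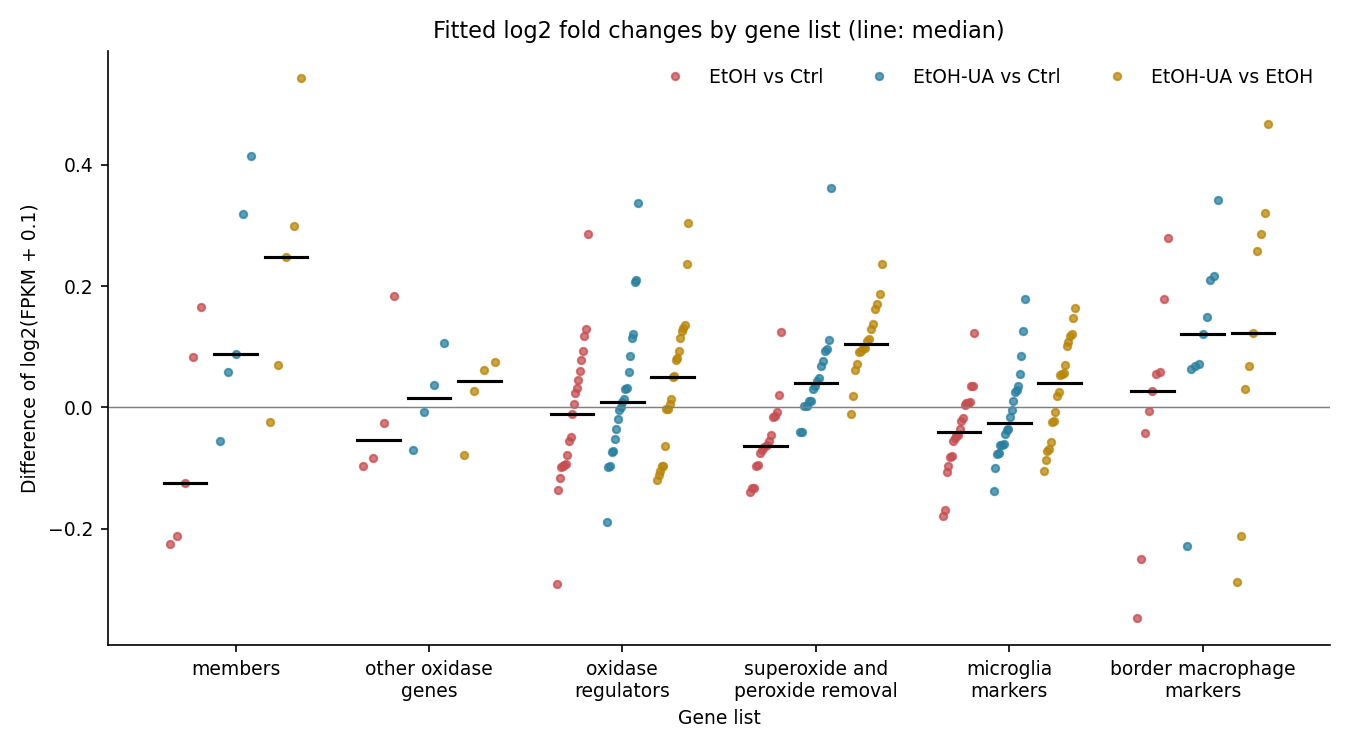
Fitted differences of log2(FPKM + 0.1) for each fitted gene of 6 lists in the 3 comparisons, with the median as a line. The superoxide and peroxide removal genes lie mostly above 0 between EtOH-UA and EtOH mice (15 of 16), while the microglial markers scatter on both sides of 0 (12 higher, 8 lower). Without the 2 EtOH-UA libraries that stood apart these counts were 5 of 16 and 4 higher, 16 lower. With all libraries 51.2% of all genes were higher in EtOH-UA than EtOH mice.

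Markers of microglia, cells that make the phagocyte oxidase, lay on both sides of 0. Between EtOH-UA and EtOH mice 12 of 20 microglial markers were higher and 8 lower, where 51.2% of all genes were higher. Their median log2 difference was 0.04, with none at an unadjusted p under 0.05 (limma), beside 3.27% of all genes. Without the 2 libraries that stood apart 4 were higher and 16 lower (median -0.03), and with the short-transcript measure as a covariate 5 were higher and 15 lower (median -0.03). The median was -0.04 between EtOH and Ctrl mice (7 higher, 13 lower, beside 48.6% higher over all genes). Ctss and C1qa, abundant genes of the list, differed by 0.06 and 0.15 between EtOH-UA and EtOH mice with all libraries. Border macrophages are the phagocytes of the meninges and vessel walls. Their markers were higher for 7 of 9 genes between EtOH-UA and EtOH mice (median 0.12, or 6 of 9 and 0.28 without the 2 libraries). Between EtOH-UA and Ctrl mice 8 of 9 were higher (median 0.12), and 51.2% of all genes were higher in each of these comparisons. The summed level of these markers was low, from 3.05 to 8.51 FPKM in Ctrl, 3.76 to 6.76 FPKM in EtOH and 3.67 to 7.29 FPKM in EtOH-UA mice. Summed neutrophil markers ran from 3.68 to 8.14, 3.27 to 7.56 and 3.5 to 9.1 FPKM. The part of any of these cells in the level of Cyba was not tested.

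Across mice within groups, no relation between Cyba and another gene of the set passed the test. Taking each mouse's deviation from its group mean on the log2(FPKM + 0.1) scale, Pearson's r between Cyba and Cybb was -0.10 and Spearman's rho -0.11 (n = 23; permutation p = 0.680 and 0.620, adjusted over 39 relations, of which 30 are reported, p = 0.858 and 0.890). Without the 2 mice farthest from the median r was 0.08. Between Cyba and Ncf1 r was -0.11, between Cyba and Rac2 -0.29 and between Cyba and Ncf4 0.36, with a lowest adjusted permutation p of 0.422. With the microglial marker score r was 0.32 (permutation p = 0.149, adjusted p = 0.422). Within groups that r was -0.13 (Ctrl), 0.62 (EtOH) and 0.74 (EtOH-UA).

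Between Cyba and the short-transcript measure r was 0.41 and rho 0.40, which did not pass after adjustment (permutation p = 0.0208 and 0.0420, adjusted p = 0.135 and 0.205). Without the 2 farthest mice r was 0.28. Within groups r was 0.15 (Ctrl), 0.70 (EtOH) and 0.78 (EtOH-UA). All of these values share the library, and the measure counts Cyba among its genes.

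Cybb varied with genes of the meninges. The plan for these relations named the microglial score alone, so those with the meningeal and border macrophage scores were not planned. The meningeal markers include Col1a2, which is also among the genes most like Cybb given below. Its r with the mean deviation of meningeal and fibroblast markers was 0.77 and its rho 0.77 (n = 23; permutation p = 7e-05 and 6e-05, adjusted p = 0.00136 and 0.00234). Without the 2 farthest mice r was 0.63, and within groups it was 0.83 (Ctrl), 0.49 (EtOH) and 0.88 (EtOH-UA). With the border macrophage score r was 0.63 and rho 0.53 (permutation p = 0.00419 and 0.0136, adjusted p = 0.0409 and 0.133, or 0.0629 and 0.204 when adjusted over the 30 reported relations alone). That relation fell to r = 0.35 without the 2 farthest mice and had the opposite sign within EtOH mice (0.92 for Ctrl, -0.32 for EtOH and 0.83 for EtOH-UA), so it rested on few mice. With the microglial score r was -0.08 (permutation p = 0.733). The summed meningeal markers ran from 32.45 to 85.70 FPKM in Ctrl, 41.60 to 85.88 FPKM in EtOH and 45.88 to 92.07 FPKM in EtOH-UA mice. In EtOH-UA mice all 8 were higher relative to EtOH (median log2 difference 0.10) and 5 of 8 relative to Ctrl mice (0.16), beside 51.2% of all genes in each. Their part in the Cybb difference was not tested.

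**Figure D4:**
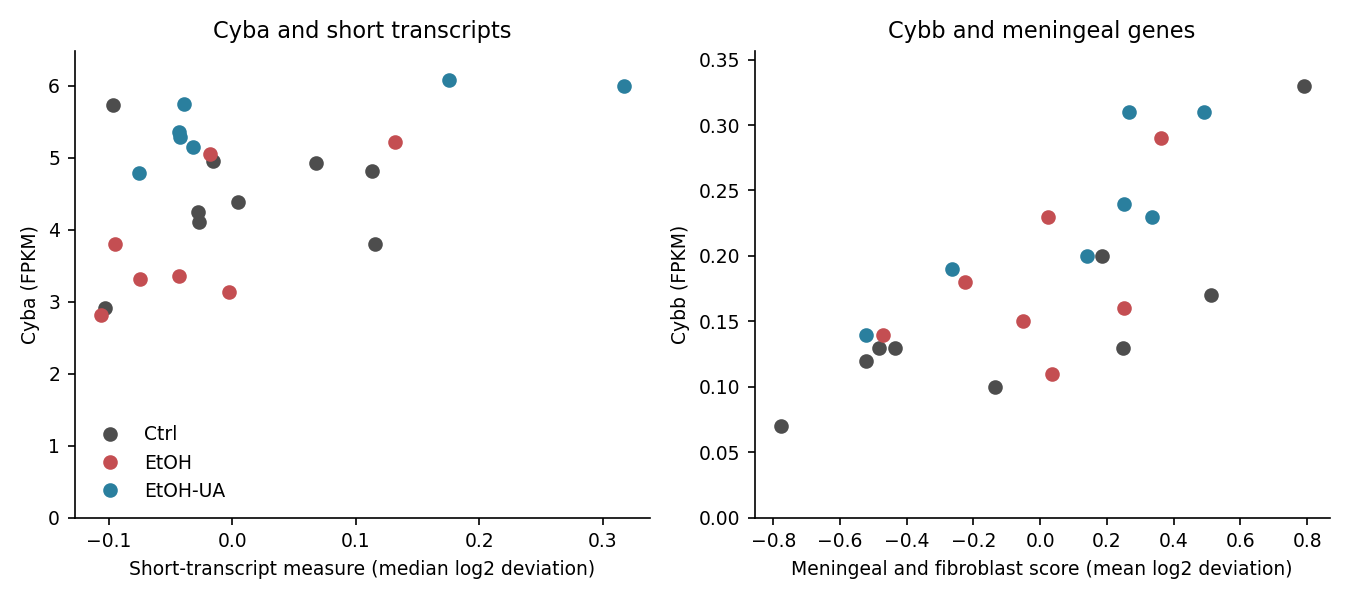
Left, FPKM of Cyba in each mouse against the short-transcript measure of its library (median log2 deviation), and right, FPKM of Cybb against the meningeal and fibroblast score (mean log2 deviation), with colors for the 3 groups. The 2 EtOH-UA libraries with a measure of 0.176 and 0.317 hold the highest Cyba values, and Cybb has a positive r with the score in each group (0.83, 0.49 and 0.88).

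Ncf4 had an r of 0.43 with the microglial score, which did not pass after adjustment (permutation p = 0.0492, adjusted p = 0.213). Ncf1 and Rac2 had an r of 0.46 with each other, which did not pass either (adjusted permutation p = 0.213).

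**Figure D5:**
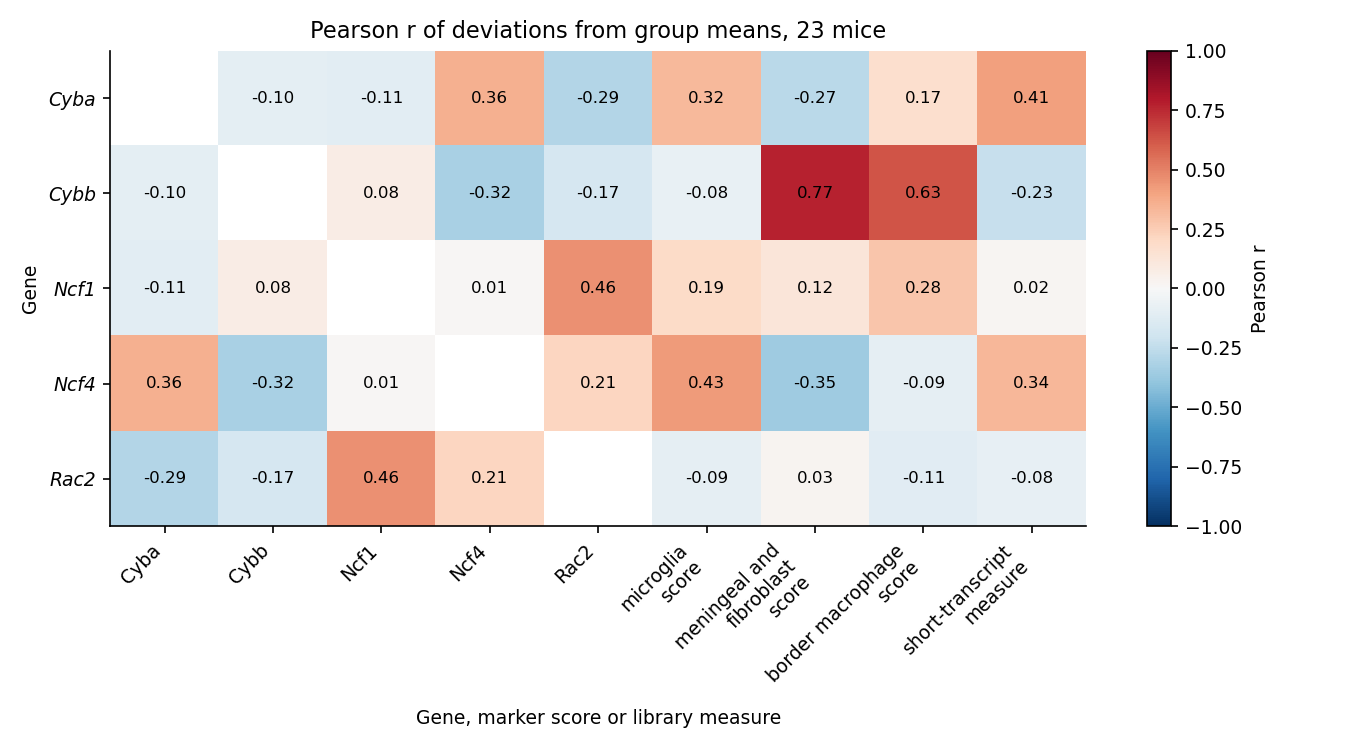
Pearson's r across 23 mice of the deviations from group means, between the 5 fitted genes of the set (rows) and the same genes, 3 marker scores and the short-transcript measure (columns). The highest values are those of Cybb with the meningeal score (0.77) and the border macrophage score (0.63).

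The genes most like Cyba across the 23 mice, among 12903 others with a mean of at least 1 FPKM, were Inka1 (Pearson's r of deviations 0.78), Actr3b (0.76), Mepce (0.76), Grasp (0.75) and Arpc1a (0.75). None of them is another oxidase subunit, and their median coding transcripts ran from 524 to 2033 bp. Actr3b and Arpc1a encode components of the Arp2/3 complex, which nucleates branched actin. Among the 5 genes most like Cybb were Arhgap29 (0.83), Cp (0.82), Col1a2 (0.80) and Crabp2 (0.78). Col1a2 encodes a fibrillar collagen chain and Cp the copper protein ceruloplasmin. These are the highest of many values and are given as a description.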

How the data were processed

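Hippocampal RNA from 9 Ctrl, 7 EtOH and 7 EtOH-UA mice was sequenced. The authors' methods describe poly(A)+ RNA aligned with Bowtie2 to mm10 and quantified with RSEM; the labels name total RNA, and the submitters' processing notes list HISAT2 2.1.0, Bowtie2 2.2.5, RSEM 1.2.8, StringTie and DESeq without roles. The deposited values are FPKM to 2 decimals, and at a given FPKM a shorter transcript rests on fewer fragments. Columns were assigned to groups by name.

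The 15985 of 19733 genes that averaged 0.1 FPKM or more were fitted as log2(FPKM + 0.1) with limma 3.58.1 (R 4.3.3; eBayes, trend, 1 model of 3 groups), with Benjamini-Hochberg adjustment over all of them and a threshold of 0.05. FPKM are not counts, so the count test of the methods was not used. For the genes other than Cyba, two-sided exact permutation tests of the mean difference used all 11440 splits. P-values of group differences set each difference against the spread between these mice. Correlations used 100000 permutations within groups (smallest possible p 1e-05), adjusted over 39 relations. Beside the genes the plan named only the microglial score, and all of these p-values were added after the values were seen. Positions and promoters are from RefSeq (GRCm38.p6), which held 4 of the 6 promoters, and transcript lengths are from GENCODE. The fit was tested on simulated data.

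The genes and lists were chosen with earlier results of these data known. All 6 genes and 11 other oxidase genes are named; from other lists, those with the smallest p and, for markers, the most abundant; for likeness, the 5 highest. Alternatives were a pseudocount of 1 or 0.01, other filters, upper-quartile and quantile scaling, only the 2 groups compared, and each mouse left out; the short-transcript covariate and leaving out further libraries were chosen after seeing the data. Some genes that these rules name are not reported here.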

Additional observations from a re-analysis of the deposited data

Results flagged for a closer look

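Duoxa1, a maturation factor of dual oxidases, was flagged in Ctrl mice because its highest mouse stood away from the others. That mouse had 0.16 FPKM and the next 0.04 FPKM, a gap of 0.648 of the range of the group on the log2(FPKM + 0.1) scale. It was the 1 group of values flagged of 36 examined, where chance gives about 1.8, and Duoxa1 was at 0 in 12 of 23 mice.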

How the results depend on the processing

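No member of the set other than Cyba, which was not tested, passed an adjusted p of 0.05 under any alternative run, and none of them changed sign in a comparison with Ctrl mice. The counts over all genes moved more. At an unadjusted p under 0.05, 523 genes differed between EtOH-UA and EtOH mice, and 307 without the EtOH-UA mouse of highest summed FPKM (404609). Between EtOH and Ctrl mice 487 became 248 with a mean of at least 1 FPKM (12904 genes tested) and 897 without the libraries with a short-transcript measure over 0.1. Between EtOH-UA and Ctrl mice 492 became 981 without the 2 EtOH-UA mice of highest summed FPKM and 892 with the short-transcript covariate, which also gave 1 gene (Cd24a, log2 difference 0.77, named after its value was seen) at an adjusted p under 0.05 between EtOH and Ctrl mice. Leaving out each mouse gave 307 to 1241, 316 to 938 and 345 to 728 genes in these 3 comparisons at an unadjusted p, and 0 to 1 at an adjusted p. The mice behind the shifts over 1.5 times were an EtOH mouse of summed FPKM 366930 (1241 and 938), an EtOH mouse of 330667 (316), an EtOH-UA mouse of 335114 (994) and the mouse of 404609. A single gene was called at an adjusted p without either of 2 EtOH-UA mice (336178 and 333801; LOC101055676) or without 1 Ctrl mouse (358381; LOC115488002), both named after their values were seen.

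Without the EtOH-UA mouse of highest summed FPKM, r fell to 0.599 for Cybb with the border macrophage score (adjusted permutation p = 0.0613). Values near 0 turned sign: Ncf1 with the short-transcript measure (-0.0400) and Rac2 with it (0.0533) without that mouse, and Ncf1 with Ncf4 (-0.0028) at a pseudocount of 1. The cause of these changes was not tested. No paired analysis was possible because the columns carry mouse numbers and no replicate numbers. Depth limits Nox4, Cybb and Ncf4 most, and intervals of counting error are known here only through the estimated depth.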
